A study of Mus musculus with 24 samples.

Results

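The Bcl2 family genes described here are Bcl2, Bcl2l1, Bcl2l2, Mcl1, Bak1, Bad, Bid, Bcl2l11 and Bnip3. They were taken as every probe set (a group of short oligonucleotides on the array that reports 1 transcript) whose only gene symbol in the platform annotation was a name on a list of 10 members. The list gave 15 of the array's 12422 probe sets, for 9 of the 10 genes. The tenth, Bax, matched no probe set and was not analysed here.

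The RNA came from 11 lines of tumour cells and from normal lung cells. The lines, A2B1, A2C12, B3, betaD5, betaD10, cRAF_cMYC, gammaA3, gammaA7, gammaB8, gammaD1 and gammaD12, were grown out of lung tumours of mice that were 8 months old and carried c-myc and c-raf transgenes together. They were kept in DMEM with calf serum for up to 50 weekly passages and were measured on 22 arrays. The control cells, on 2 arrays, were alveolar epithelial type II cells, taken from the lungs of healthy non-transgenic animals. A tumour line therefore differed from control both in its origin and in its time in culture, and these cannot be told apart. The labels do not state the promoter of the transgenes, the strain, the age of the control mice or whether animals were pooled, and 1 label field writes gammaA8 for gammaB8. The titles of the 2 control arrays differ, with control _AT for control 1 and control _AT2 for control 2.

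The Bcl2 family decides whether mitochondria stay intact when a cell is under stress. The pro-survival members Bcl2, Bcl2l1 (Bcl-xL), Bcl2l2 (Bcl-w) and Mcl1 sit on the outer mitochondrial membrane and hold back Bax and Bak1, which otherwise form the pores that release cytochrome c. The BH3-only members Bad, Bid and Bcl2l11 (Bim) are stress sensors that bind the pro-survival members, and Bid and Bim can also activate the pore formers. Bnip3 is a related protein of the same membrane, best known as a gene induced by low oxygen and as a receptor for the removal of mitochondria by autophagy. Myc is known to raise sensitivity to apoptosis, and Raf signalling through ERK is known to act on Bad and Bim.

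The 2 control arrays differed from each other and from the tumour arrays in more than these genes. Signals are the array software's linear intensities, scaled to nearly the same trimmed mean on every array. Tumour arrays had median signals of 53.2 to 75.5, and controls 1 and 2 had 93.8 and 108. The 3' to 5' actin ratio, which rises when RNA is degraded, lay at 1.03 to 1.32 for tumour arrays, against 1.47 and 1.64 for the controls. The controls differed from each other by 2-fold or more in 952 of 7670 tested probe sets (12.4%). The summed signal of type II cell markers (8 of 12 had a probe set) reached 96.1 to 215 on tumour arrays, against 1589 and 31018 on controls 1 and 2. Sftpc, the surfactant protein that defines type II cells, gave 4.93 to 61.2 on tumour arrays, against 787 and 11196 on the controls. The summed signal of macrophage and myeloid markers (16 of 17) reached 620 to 2147 on tumour arrays, against 51204 and 31398 on the controls. Club and ciliated cell markers (5 of 6), lymphocyte markers (12 of 15) and endothelial markers (9 of 11) had summed signals of 272 to 617, 109 to 430 and 826 to 3870 on tumour arrays, against 7586 and 20753, 1812 and 5491, and 1565 and 3249 on the controls. Many markers passed the filter on low signals only through the controls, so no count of tests over them is given. Except for the endothelial markers, whose ranges overlapped, each list had its sums below both controls on every tumour array, and the part of this in the differences below was not tested. The endothelial overlap came from Eng alone, at 758 to 3737 on tumour arrays, against 519 and 876 on the controls. Every other endothelial marker lay below both controls on all tumour arrays, such as Cdh5, at 1.08 to 23.7 against 155 and 455. Several lymphocyte markers overlapped control 1, such as Cd4, at 8.29 to 145 against 57.4 and 181, and Cd3g lay above it, at 2.03 to 13.7 against 1.70 and 67.3. The lymphocyte sum of control 1 came mostly from Cd52 (803) and Coro1a (628). Among myeloid markers Cd14 overlapped control 2, at 339 to 1727 against 1814 and 1503. In such bulk samples, fewer cells of a type and less RNA per cell cannot be told apart.

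Of the 9 genes, 3 were lower in the tumour lines than in control and none was higher at the threshold used. Mcl1 was 3.08-fold lower, Bcl2l1 2.49-fold and Bnip3 4.12-fold, and the other 6 were not called. A gene was called at an adjusted p under 0.05 together with at least a 2-fold difference in limma, fitted to log2(signal + 32) over all 7670 probe sets whose signal exceeded the array median on at least 2 arrays. Each line entered once, as the mean of its arrays. Over all tested probe sets 21.4% were called lower and 16.5% higher, and the counts of 3 and 0 of 9 are read against those shares; by itself such a count is no result about the family. The split depends on the scaling: higher ones made up 43.6% of all calls with the deposited scaling, 54.9% with quantile normalization and 72.4% with arrays centred on their medians, as the median difference of all tested probe sets moved to 0.18 and 0.49. At an unadjusted p under 0.05, 2 members were higher (Bad and Bid), where 31.7% of all tested probe sets were, and by the adjusted p alone 6 were lower and 2 higher, where 34.5% and 30% of all tested probe sets were. The median log2 difference was -0.82 for the 9 genes and -0.05 for all tested probe sets. In 6 genes every line mean lay below both control arrays (29.7% of tested probe sets), and in 1, Bad, every line mean lay above both (25.4%). On single arrays, 5 genes were below both controls on 22 of 22 tumour arrays (23.1% of tested probe sets), and Bad was above both on all 22 (18.6%). Of the 15 probe sets, 12 passed the filter on low signals. The differences below are log2 values, tumour minus control, from each gene's brightest probe set, and the offset of 32 makes a log2 difference smaller than the ratio of signals where signals are low.

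**Figure D1:**
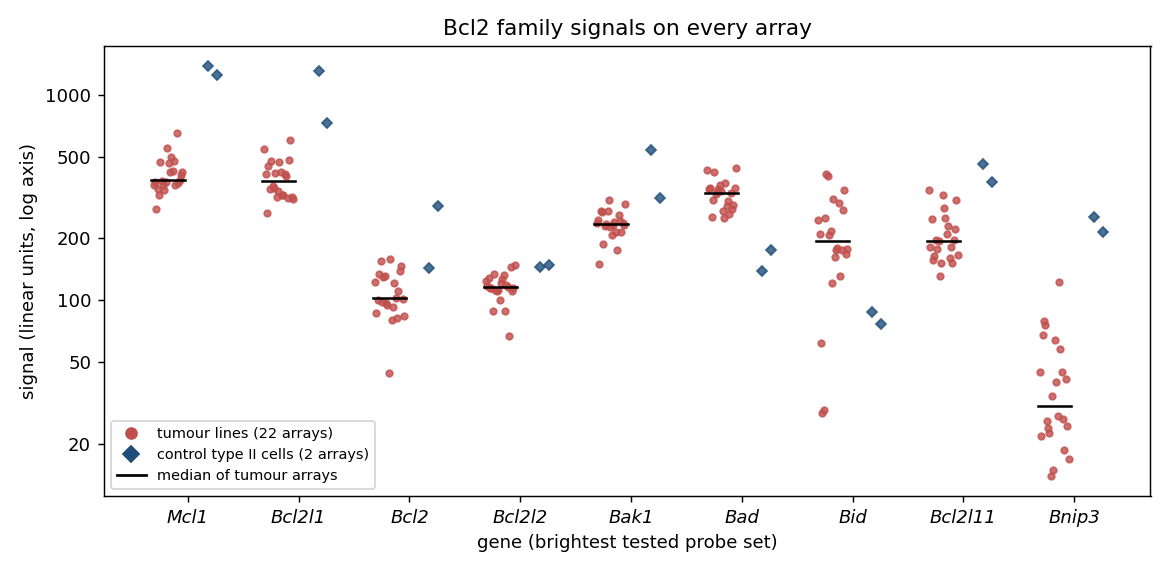
Signal (linear units, log axis) of the brightest probe set of each Bcl2 family member on the 22 tumour arrays (left of each pair) and the 2 control arrays (right); points are arrays, and levels of different genes are not comparable because their probes differ. Mcl1, Bcl2l1, Bcl2l11, Bak1 and Bnip3 lay below both controls on 22 of 22 tumour arrays, and Bad lay above both on 22 of 22.

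Among the pro-survival members, Mcl1 and Bcl2l1 were lower in the tumour lines, and Bcl2 and Bcl2l2 were not called. Mcl1, a short-lived protein that cells must keep making in order to survive, gave signals of 278 to 655 with a median of 384 on the 22 tumour arrays, against 1377 and 1254 on the controls. All 22 tumour arrays lay below both controls, which differed little from each other. On the log2 scale it differed by -1.62 (SE 0.16, adjusted p = 5.0e-07). Each line set against control on its own gave a called decrease in 11 of 11 lines, with log2 differences between -1.95 in A2C12 and -1.34 in gammaA3. Over all pairs of a line and a tested probe set, 20.8% were called lower and 16.4% higher, and these contrasts all share the 2 control arrays.

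Bcl2l1, which encodes Bcl-xL, gave 265 to 606 with a median of 381 on tumour arrays, against 1301 and 729 on controls 1 and 2. The groups did not overlap, although the 2 controls lay well apart. The log2 difference was -1.31 (SE 0.20, adjusted p = 3.77e-05), and 10 of 11 lines were called lower. The line not called, A2B1, was at -0.99. Leaving out control 1 brought the difference to -0.91, below the 2-fold threshold, and centring each array on its median brought it to -0.78. A second Bcl2l1 probe set, 99026_at, gave 1.31 to 6.23 over tumour and control arrays together and was not tested.

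Bcl2, the founding member of the family, gave 44.0 to 158 with a median of 102 on tumour arrays with probe set 98870_at, against 144 and 288 on the controls. Of the 22 tumour arrays, 19 lay below both controls, and the line means all did. The log2 difference was -0.82 (SE 0.19, adjusted p = 0.00161), which missed the fold threshold. It was -1.25, and called, without control 1, and -0.39 without control 2. The value was -0.28 (adjusted p = 0.186) with arrays centred on their medians and -0.37 (adjusted p = 0.133) with its probe sets averaged. The second tested Bcl2 probe set, 98869_g_at, gave 45.1 to 139 on tumour arrays, against 40.3 and 151 on the controls, a log2 difference of 0.07 (SE 0.26, adjusted p = 0.832). Here the tumour arrays filled the space between the 2 controls, so the direction of Bcl2 depended on the probe set and on the control array. Probe set 98868_at gave 13.2 to 46.7 on tumour arrays, against 15.6 and 34.2 on the controls, and was too dim to be tested.

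Bcl2l2, which encodes Bcl-w, was by the brightest probe sets the member nearest to control. It gave 67.0 to 149 with a median of 115 on tumour arrays, against 145 and 149 on the controls. Its log2 difference was -0.26 (SE 0.13, adjusted p = 0.0967), and 10 line means lay below both controls and 1 above. With quantile normalization the difference was 0.16, and with median centring 0.27, so it has no settled direction.

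Bak1, the pore former with a probe set, did not pass the fold threshold. Its signals were 150 to 309 with a median of 236 on tumour arrays, against 539 and 315 on the controls. All 22 tumour arrays lay below both controls, the highest by a narrow margin. The difference on the log2 scale was -0.69 (SE 0.18, adjusted p = 0.00318), and none of the 11 lines was called on its own. Without control 2 it was -1.05, and called, and without control 1 it was -0.33. With arrays centred on their medians it was -0.16 (adjusted p = 0.48).

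The 3 BH3-only members did not share a direction, and none of them passed both thresholds. Bcl2l11 lay below both controls on every tumour array, Bad lay above both by its brightest probe set, and Bid lay above both in 10 line means and below both in 1. Bcl2l11, which encodes Bim, gave 132 to 344 with a median of 195 on tumour arrays, against 458 and 378 on the controls. The log2 difference was -0.95 (SE 0.23, adjusted p = 0.0019), and -0.42 (adjusted p = 0.124) with arrays centred on their medians. In single lines 7 of 11 were called lower, between -1.45 in betaD5 and -0.40 in gammaD1, where all 11 differences lay below 0. A second probe set, 99418_at, gave 45.1 to 113 on tumour arrays, against 107 and 81.5 on the controls, a log2 difference of -0.37 (SE 0.16, adjusted p = 0.0484) that became 0.16 with quantile normalization and 0.17 with median centring. Probe set 99419_g_at gave 5.88 to 49.0 on tumour arrays, against 4.55 and 17.9 on the controls, and was not tested.

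Bad, a sensor of growth factor withdrawal that survival kinases hold inactive by phosphorylation, gave opposite answers from its 2 probe sets. Probe set 99670_at gave 250.4 to 441 with a median of 334 on tumour arrays, against 138 and 176 on the controls, and all 22 tumour arrays were above both controls. Its log2 difference was 0.99 (SE 0.16, adjusted p = 7.58e-05), just under the 2-fold threshold. It was called in 14 of 43 alternatives, at 1.37 with quantile normalization and 1.53 with median centring among them. In single lines 7 of 11 were called higher, between 0.75 in gammaA7 and 1.33 in gammaD12. Probe set 161500_i_at gave 28.3 to 93.7 with a median of 51.6 on tumour arrays, against 188 and 227 on the controls, and all 22 tumour arrays were below both. Its log2 difference was -1.48 (SE 0.18, adjusted p = 3.55e-06), and 11 of 11 lines were called lower, although with median centring it was -0.94 and not called. Averaging the 2 probe sets gave -0.24 (adjusted p = 0.168), so the data give Bad no direction that holds for both.

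**Figure D2:**
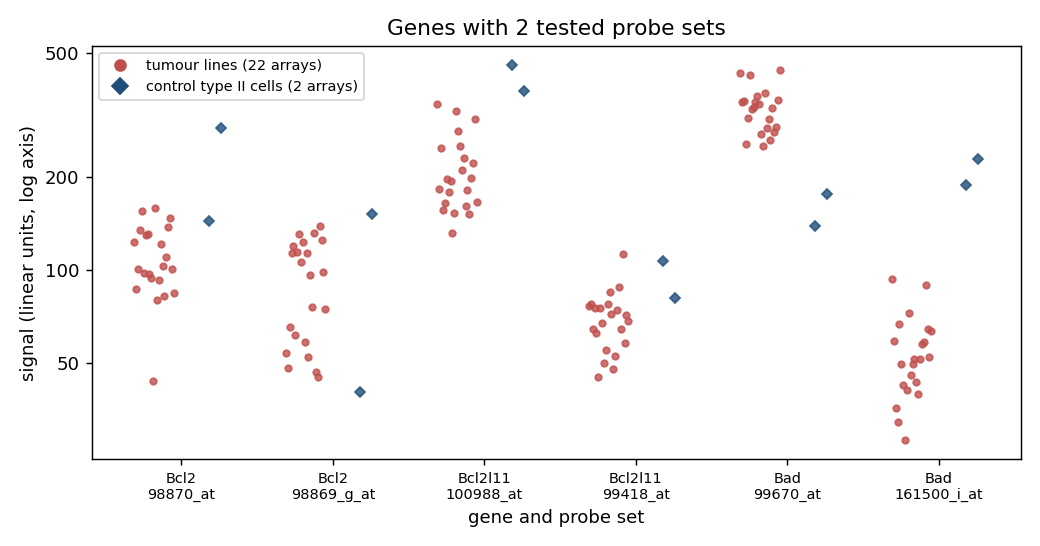
Signal (linear units, log axis) on tumour arrays (left of each pair) and control arrays (right) for the tested probe sets of the members that have more than 1; points are arrays. Bad lay above both controls on all 22 tumour arrays with 99670_at and below both on all 22 with 161500_i_at.

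Bid, which links death receptors to mitochondria once caspase 8 has cut it, was the member that differed most between lines. Tumour arrays gave 28.2 to 410.1 with a median of 194, against 87.2 and 76.6 on the controls. In 10 lines the mean lay above both controls, at 168 to 347, and in A2C12 it lay below both, at 38.2. The log2 difference of all lines from control was 0.93 (SE 0.39, adjusted p = 0.0462). It was called without A2C12 (1.09), with quantile normalization (1.47) and with median centring (1.47). With 1 control array left out the adjusted p rose to as much as 0.202. On their own A2B1 (1.19), B3 (1.74) and gammaB8 (1.35) were called higher.

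Bnip3 showed the largest decrease of the 9 genes. It gave 14.0 to 122 with a median of 30.7 on tumour arrays, against 255 and 215 on the controls. All 22 tumour arrays lay below both controls, and the signal exceeded the array median on 4 tumour arrays and on both controls, which by themselves let it pass the filter. The log2 difference was -2.04 (SE 0.26, adjusted p = 7.24e-06), and 11 of 11 lines were called lower, between -2.53 in betaD5 and -1.32 in A2C12.

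**Figure D3:**
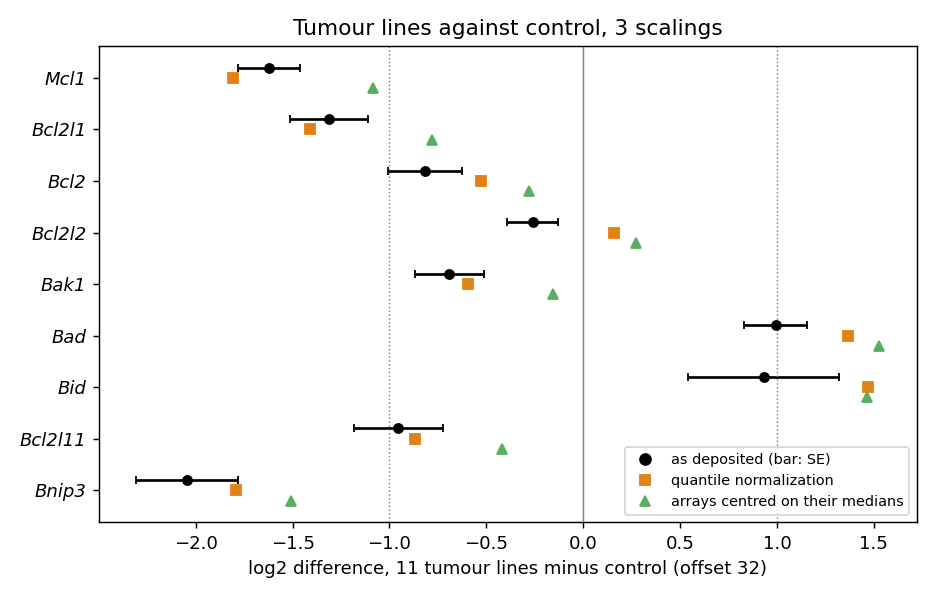
Difference of log2(signal + 32), tumour lines minus control, for the brightest probe set of each Bcl2 family member. Markers show the deposited scaling (bar, SE), quantile normalization and arrays centred on their medians, and dotted lines mark the 2-fold threshold. With the deposited scaling Mcl1 (-1.62), Bcl2l1 (-1.31) and Bnip3 (-2.04) were called lower. The second probe set of Bad is not shown here.

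The promoters of Bnip3 and Mcl1, whose decrease was called in 11 of 11 lines, are shown because the first holds matches to the motifs of Myc and of the hypoxia-inducible factors and the other holds none. Sequences are RefSeq's on GRCm38.p6, 250 bases before to 50 after the start of transcription, on the gene's own strand. The Bnip3 window is chr7:138909457-138909756 on the minus strand, and the Mcl1 window is chr3:95658471-95658770 on the plus strand. Capitals mark CACGTG, the E-box bound by Myc with Max, and ACGTG or GCGTG, the core bound by the hypoxia-inducible factors, each searched on both strands. The E-box contains ACGTG on both strands, so it also counts as the core.
Bnip3: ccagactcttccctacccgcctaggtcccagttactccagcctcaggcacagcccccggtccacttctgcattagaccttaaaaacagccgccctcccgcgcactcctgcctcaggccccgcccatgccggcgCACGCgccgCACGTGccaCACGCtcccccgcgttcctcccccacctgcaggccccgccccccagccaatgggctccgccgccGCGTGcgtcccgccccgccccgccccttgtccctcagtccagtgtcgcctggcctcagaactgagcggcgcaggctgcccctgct
Mcl1: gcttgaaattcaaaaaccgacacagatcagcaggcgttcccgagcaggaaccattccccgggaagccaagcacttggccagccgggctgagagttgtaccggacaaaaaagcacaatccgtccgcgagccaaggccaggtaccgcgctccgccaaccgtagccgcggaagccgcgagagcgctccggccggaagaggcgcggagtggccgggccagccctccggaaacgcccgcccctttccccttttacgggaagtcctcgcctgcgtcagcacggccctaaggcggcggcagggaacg
The Bnip3 window held an E-box at -108 and 5 matches to the core, the first at -117 and the last at -35, 2 of them the E-box itself. Of the 13 windows of the 9 members, 1 held an E-box, against 7.15% of 32851 RefSeq windows of the same length. The core was found in 6 of 13 member windows, of 4 genes, against 43.8% of all windows. Median GC content was 65.7% in member windows and 52.7% in all windows. A match in these letters is a description of the window and was not set against any binding data.

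Differences among the 11 lines were tested with limma's moderated F-test over the line means, on the spread between arrays of the same line. Bid passed (adjusted p = 0.0199) and the other 8 did not, where 3.42% of all tested probe sets passed. The 3 A2C12 arrays gave Bid signals of 61.7, 28.2 and 29.3, and the 19 arrays of the other lines gave 122 to 410.1 with a median of 210.0. The log2 difference of A2C12, picked here as the lowest line, from the mean of the other lines was -1.79, and its arrays did not overlap with theirs. How many tested probe sets show such a gap was not counted, so these values describe the F-test's result and add no support to it. The highest line was B3, with 252, 410.1 and 401. Within a line arrays could lie far apart too, as in cRAF_cMYC, with 122, 312 and 162. For Bid the F-test depended on A2C12's repeats: without replicate 1 or without replicate 2 of that line its adjusted p was 0.137. Over all tested probe sets the share that passed also fell, to 1.21% and 1.08%. Without the unnumbered A2C12 array Bid still passed, where 1.90% of all tested probe sets did.

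Bnip3 and Bcl2l11 came next in spread, with standard deviations of the line means of 0.38 and 0.32 on the log2 scale, against 0.60 for Bid and 0.12 for Bcl2l2. Bnip3 was highest in A2C12 (68.0, 79.2 and 76.0) and gammaA7 (122, 58.0 and 44.7) and lowest in betaD5 (14.0) and gammaD12 (16.9), each with 1 array. The F-test gave adjusted p = 0.164 for Bnip3 and 0.289 for Bcl2l11, so the order of lines was not resolved beyond the spread between arrays. Mcl1 was lowest in A2C12, at a mean of 316 against 345 to 501 in the other lines (adjusted p = 0.563). Over line and gene together, 40 of 99 pairs were called lower and 10 higher. Beside them stand 20.8% lower and 16.4% higher over all pairs of a line and a tested probe set. All these contrasts share the same control arrays.

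**Figure D4:**
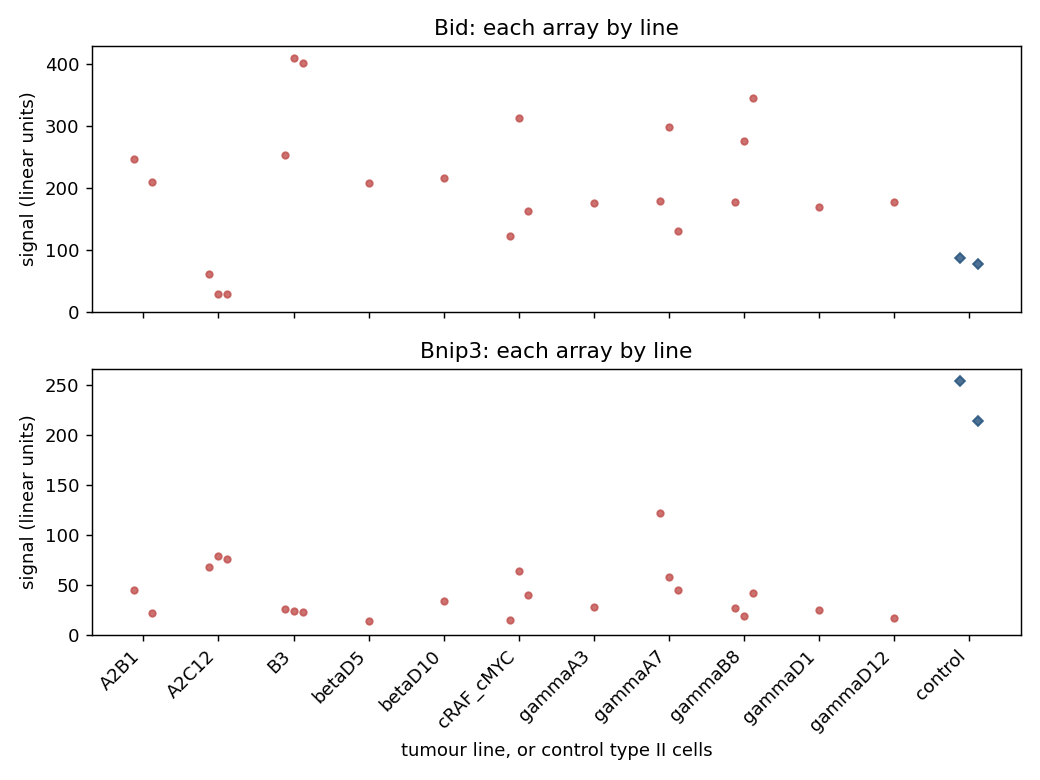
Signal (linear units, linear axis) of Bid and Bnip3 on each array of the 11 tumour lines (left) and the 2 control arrays (right); points are arrays. A2C12 gave the lowest Bid signals (61.7, 28.2 and 29.3) and, with gammaA7, the highest Bnip3 line means (74.3 and 70.1).

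Across the 11 lines, the genes whose line means were most like those of Bid were Abcg2, a drug efflux pump (Pearson's r = 0.928), and Trip6, a LIM domain adaptor (r = 0.922). Abcg2 also had its lowest mean in A2C12 (48.9) and its highest in B3 (604), against 321 and 72.7 on the controls. For Bnip3 they were Igf2, a growth factor of fetal tissue (r = 0.943), and Zbtb45, a zinc finger protein (r = 0.939). Igf2 was highest in A2C12 (363) and lowest in betaD5 (15.5), against 319 and 370.1 on the controls. For Bcl2l11 they were H2-M10.1 (r = 0.928) and Ap3d1 (r = 0.797). These values were picked as the highest over all genes, describe 11 points that share arrays of the same lines, and carry no test. Between members the correlations with the largest size were 0.70 for Bcl2l2 with Bad and -0.65 for Bad with Bnip3.

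In 6 lines some arrays carried a replicate number in their titles and 1 did not. Within lines no member differed between unnumbered and numbered arrays at the threshold (limma), where 0.665% of all tested probe sets did. At an unadjusted p under 0.05 there were 3, Bcl2, Bcl2l1 and Bcl2l2, a count near the 30.2% of all tested probe sets at that threshold. The log2 difference, unnumbered minus numbered, was -0.34 for Bcl2 (adjusted p = 0.125), -0.31 for Bcl2l1 (adjusted p = 0.107) and -0.26 for Bcl2l2 (adjusted p = 0.0949). Set against control, Bcl2 was at -0.93 over the unnumbered arrays of all 11 lines and -0.61 over the numbered arrays of 6 lines. Such values differ in the lines included as well as in the kind of array. Bcl2l1 was at -1.42 and -1.08. Mcl1 was at -1.55 and -1.69 and Bnip3 at -2.07 and -1.80, so the 3 called decreases were past 2-fold in both kinds of array. The labels do not say what the numbers mean.

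Other genes of the pathway were taken from 6 lists (70 tested genes), of which 13 were called higher and 12 lower (2 of the 12, Casp1 and Sfn, passed the filter through the controls alone), beside 16.5% and 21.4% of all tested probe sets. Their median log2 difference was 0.02. Of 7 other Bcl2 family genes with a probe set 4 were tested. Bnip2, a Bcl2-interacting protein, was higher (1.14, SE 0.22, adjusted p = 0.00028), though its other probe set gave -1.67. Bok, a pore former related to Bax, was lower (-1.13, SE 0.29, adjusted p = 0.00342). Without control 2 neither was called, at 0.86 and -0.67.

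Among 13 tested genes of the apoptosome and caspases, 3 were called higher and 2 lower. Casp1, an inflammatory caspase, gave 2.23 to 16.6 on tumour arrays, against 219.5 and 149 on the controls. It exceeded the array median on the 2 controls alone, through which it passed the filter, so that it had to differ and its call is no support. Myeloid markers were low on the same tumour arrays. Endog, a mitochondrial nuclease, was lower as well (-1.05, and -0.62, not called, without control 2). Parp1, a DNA repair enzyme cut during apoptosis, was higher (1.16, and 0.86, not called, with an offset of 100). Htra2, a protease of the space between the mitochondrial membranes, was higher by its brightest probe set (1.96), whereas another probe set gave 254 to 665 on tumour arrays, against 1465 and 1716 on the controls. Of 4 tested inhibitors of apoptosis, 1 was higher and 1 lower. Birc5 (survivin), which also serves in mitosis, gave 212 to 1886 with a median of 1010 on tumour arrays, against 119 and 67.7 on the controls (2.95, SE 0.34, adjusted p = 2.26e-06), and Birc3, an inhibitor that acts in NF-kappaB signalling, was at -1.10, and at -0.70, not called, without control 1.

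In the death receptor pathway 2 of 9 tested genes were higher, the receptor Fas (1.15) and the adaptor Tradd (1.06), and 2 were lower, the receptors Tnfrsf21 (-2.29) and Tnfrsf1b (-1.50). Without control 2, Tradd was at 0.41, and Fas missed the adjusted p without either control array. Fas was at 1.49 over the unnumbered arrays of 11 lines and 0.47 (adjusted p = 0.294) over the numbered arrays of 6 lines. Within lines, its unnumbered arrays differed from numbered ones by 0.97 (adjusted p = 0.0263). Tnfrsf1b was at -0.96 with median centring and not called. Among 22 tested genes of the mitochondrial channel and Bcl2 partners, 4 were higher and 3 lower. Slc25a4, the ADP/ATP carrier of the inner mitochondrial membrane, gave 6051 to 11051 with a median of 8363 on tumour arrays, against 1613 and 1142 on the controls (2.64, SE 0.17, adjusted p = 5.66e-09). Bag2, a co-chaperone, was at 1.36, and at 0.89, not called, by its other probe set. Sfn (14-3-3 sigma), an epithelial protein, gave 3.41 to 47.6 with a median of 10.6 on tumour arrays, against 571 and 291 on the controls, and like Casp1 it passed the filter through the 2 controls alone. Ppp3ca, the calcineurin subunit that activates Bad, was at -1.49, but at -0.96 with median centring and -0.999 over numbered arrays it was not called. Median centring also ended the calls of Bok (-0.59), Endog (-0.51) and Birc3 (-0.57). Quantile normalization ended those of Endog (-0.57) and Birc3 (-0.77). An offset of 100 ended those of Bnip2, Bok, Endog, Birc3, Fas and Tradd.

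Of 18 tested hypoxia response genes, 2 were called higher and 3 lower. P4ha1 was at 1.41 and Pgk1 at 1.34. Pdk1 gave 14.8 to 156 with a median of 32.9 on tumour arrays, against 360 and 218 on the controls (-2.18, SE 0.34, adjusted p = 5.12e-05). Adm, the peptide adrenomedullin, was called lower (-1.61), but its controls stood at 588 and 27.2, and without control 1 its difference was 0.08. Without control 2, Pgk1 was at 0.72 and not called. Adm and Pgk1 also differed between unnumbered and numbered arrays within lines, by 0.96 (adjusted p = 0.0293) and 0.38 (adjusted p = 0.0245).

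**Figure D5:**
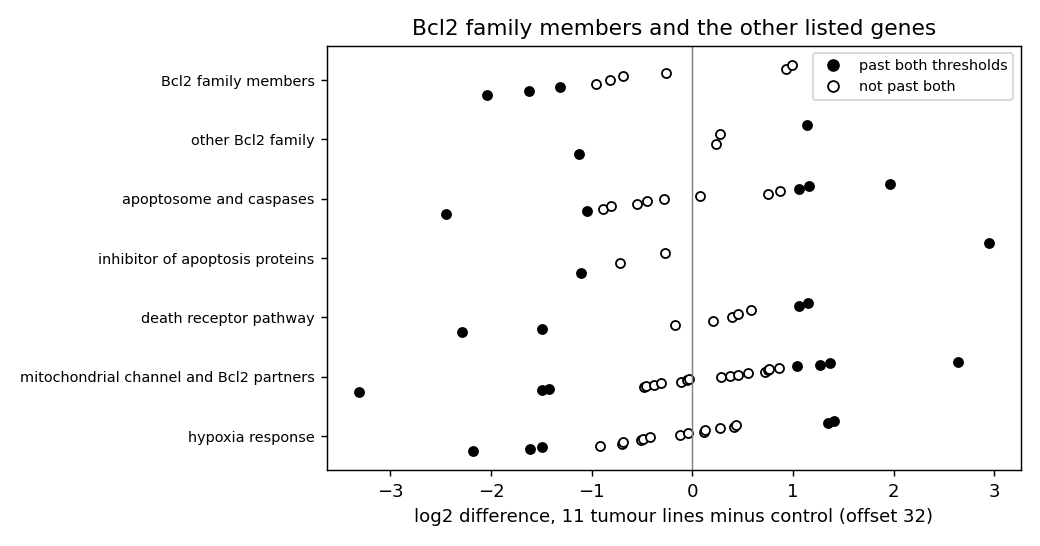
Difference of log2(signal + 32), tumour lines minus control, for the Bcl2 family members and for the genes of the 6 other lists; points are genes at their brightest tested probe set. Birc5 (2.95) and Slc25a4 (2.64) were the highest of the other genes. Sfn (-3.31) and Casp1 (-2.44), the lowest, passed the filter through the 2 controls alone.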

How the data were processed

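The authors deposited 1 linear intensity for each probe set and array, computed in Affymetrix GCOS (version not stated) per the submitters' processing notes. The deposited arrays share a 2% trimmed mean of nearly 250.2, so they had been scaled to it and a difference is relative to other RNAs of the same cells. The 66 control probe sets were left out, and probe sets with several symbols entered the fits without a name. The 24 arrays gave 11 line means and 2 controls for limma 3.58.1 (R 4.3.3) on log2(signal + 32), with 11 residual degrees of freedom. A fit of 12 group means to all arrays (12 residual degrees of freedom) gave each line's contrast and the F-test, and a fit with the line as a factor compared unnumbered with numbered arrays. Adjusted p-values are Benjamini-Hochberg over 7670 probe sets. A gene stands for its brightest tested probe set. Labels do not say whether repeat arrays are separate cultures or animals. The p-values for lines against control rest mostly on the spread among the 11 line means, with the same spread assumed for the 2 controls. Those of the other fits rest on the spread between arrays of the same line or of control, which may be technical. Precision is limited by how many arrays there are. Named pathway genes were, per list, at most the 2 called genes with the largest change in each direction; genes like a member had the highest correlations of line means. Members, lists and tests were chosen with earlier results of these data known. The fits were tested on simulated data. Changes of 2-fold were recovered in 44% for lines against control, 27% in the F-test and 37% for unnumbered against numbered arrays. The shares of 44% and 37% are limited by the 2-fold threshold itself, which such changes only just meet. For the F-test only A2C12, a line with 3 arrays, was changed, and the lines did not otherwise differ. Most simulated probe sets were unchanged, unlike in these data, so the shares need not hold here. At 4-fold the shares were 99%, 84% and 100%. False calls were 9, 6 and 1 among 7470 unchanged probe sets. A gene that was not called may therefore still differ by about 2-fold.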

Additional observations from a re-analysis of the deposited data

Results flagged for a closer look

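Bid differed between the tumour lines in the F-test over the 11 lines (adjusted p = 0.0199), with its lowest mean, 38.2, in A2C12 and its highest, 347, in B3. Of the 70 tested genes of the other lists, 4 also passed this test, singled out here after their values were seen, where 3.42% of all tested probe sets passed. Casp4, an inflammatory caspase, had its lowest mean in A2C12 (18.5) and its highest in gammaD1 (107), against 169 and 134 on the controls (adjusted p = 0.0148). Ldha, which makes lactate, was highest in A2C12 (8543) and lowest in gammaD12 (3440), against 4998 and 2952 on the controls (adjusted p = 0.0368). Slc2a1, a glucose transporter, was highest in A2C12 (422) and lowest in gammaD12 (109), against 483 and 309 on the controls (adjusted p = 0.034). Vegfa, the angiogenic growth factor, was highest in A2C12 (474) and lowest in gammaD12 (61.7), against 72.1 and 123 on the controls (adjusted p = 0.00246). The lines gammaD1 and gammaD12 had 1 array each, and the next line was close for Ldha (3475 in A2B1) and Casp4 (105 in gammaA3). A2C12 was an extreme line for all 4 genes, and how far they depend on its repeats was not tested. No group held 4 to 10 arrays, so single arrays were not tested as outliers.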

How the results depend on the processing

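Mcl1 (-1.81 to -1.09) and Bnip3 (-2.91 to -1.32) kept their call in all 43 alternatives. The 3 members called lower became 2 with median centring, 6 with no fold threshold, and 3 to 5 leaving out 1 control, with 5 without control 2. The 0 called higher became 2 with quantile normalization, median centring or no fold threshold, 1 with an offset of 1, a floor of 32 or unnumbered arrays only, and 0 to 2 leaving out a line, a control or an array (2 without line A2C12). Over all tested probe sets, higher calls went from 1265 to 1671 with quantile normalization and 2421 with centring. Lower calls went from 1638 to 1370 and 923, and the member counts are read beside these shifts. The 10 higher pairs of line and gene became 21 with quantile normalization and with centring and 2 with an offset of 100, and the 40 lower became 19 with centring. Pathway genes called higher, 13 in all, were 21 with centring, 7 with an offset of 100 and 16 or 6 without control 1 or 2, and the 12 lower were 4 with centring. In the F-test, numbered arrays of 5 lines with no replicate block called 3 members (Bcl2l11, Bid and Bnip3; 20.7% of all probe sets) and with the replicate block 2 (19.9%); all arrays with the replicate block called 1 (the differences between replicates 1 and 2 correlated between lines above 0.1 in 1 of 10 pairs, so the numbers were not taken to pair arrays; unnumbered minus numbered differences did so in 12 of 15 pairs of lines, up to 0.54), and leaving out an array gave 0 to 1. Directions turned for Bcl2 98869_g_at (-0.10 with unnumbered arrays only, -0.60 without control 1) and Adm (0.080 without control 1). Without control 2 both kept their direction, at 0.74 and -3.31. Others that turned were Bcl2l2 (0.16 with quantile normalization, 0.27 with centring) and Bcl2l11 99418_at (0.16 and 0.17). With probe sets averaged, so did Bad (-0.24), Bnip2 (-0.26) and Htra2 (-0.018). The numbered arrays of 6 lines were chosen after seeing the data. The causes were not tested, and the 2 controls limit every comparison with them.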

Other observations

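In A2B1, the line with 2 arrays, Bcl2l11 gave 344 on the numbered and 182 on the unnumbered array, the highest and a middling value among the tumour arrays. In gammaB8, Mcl1 gave 655 on the unnumbered array, the highest tumour value, and 371 and 386 on replicates 1 and 2. In gammaA7, Bnip3 gave 122 on the unnumbered array, against 58.0 and 44.7 on replicates 1 and 2.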
